A study of Mus musculus with 40 samples.

Results

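Carboxylesterases of the Ces1 and Ces2 subfamilies were measured in the kidney cortex of diabetic and non-diabetic mice. The members described here were the rows of the count table whose gene symbol was Ces1c, Ces1d, Ces1e, Ces1f, Ces1g, Ces2a, Ces2b, Ces2c, Ces2e or Ces2g, which is 10 of 55401 genes. All 10 were found, each once. The list was chosen by their family and with earlier results of these data in view, most likely the measured difference between Akita and WT mice. The values of Akita against WT mice are therefore given for the members as a description, with no p. How many of them the fit over all genes called is printed beside the share of all genes called, and nothing is read from it. The comparisons of compounds and vehicles were tested.

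The study asked whether MitoGamide, a compound that carries a scavenger of reactive dicarbonyls into mitochondria, protects the diabetic kidney. Male heterozygous Ins2-Akita mice, whose mutated insulin misfolds in the beta cell and leaves them diabetic without obesity, were compared with their WT littermates, both on the C57BL/6J strain. In the ethanol arm, WT and Akita mice were gavaged daily from 6 weeks of age with 10% ethanol in water or with MitoGamide at 10 mg/kg, and the renal cortex was taken at 22 weeks. In the water arm, WT and Akita mice were labelled as given water or MitoQ, a mitochondria-targeted ubiquinone. Their labels carry the same ages of 6 and 22 weeks, in a protocol text that names ethanol and MitoGamide only. The dose of MitoQ is not given in the sources used here, nor whether both arms were handled and sequenced together, so the vehicle and any such difference between the arms cannot be told apart. Each of the 8 groups held 5 libraries, each from the cortex of 1 animal, and the 40 libraries held between 9106654 and 24321424 estimated counts. The samples are whole cortex, in which fewer cells of a type and less RNA per cell cannot be told apart. Markers of the proximal tubule, the main cell type of the cortex, were all detected in every group.

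Carboxylesterases are serine hydrolases, most of which stay in the endoplasmic reticulum. They cleave esters, amides and thioesters of drugs as well as of lipids, and several release fatty acids from stored triglyceride. Enzymes of the Ces1 subfamily prefer substrates with a large acyl and a small alcohol group, whereas those of Ces2 prefer the opposite. They are best known from liver and intestine, and in the kidney they belong mainly to the proximal tubule.

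The members lie in 2 groups of neighbouring genes on chromosome 8 (GRCm38, positions from GENCODE mouse release 21). The Ces1 genes and Ces5a span chr8:93020214-93535830 and hold 5 of the members among 9 genes. The Ces2, Ces3 and Ces4a genes span chr8:104734003-105150109 and hold the other 5 among 11 genes. Because these genes arose by duplication, reads can match more than 1 of them, and kallisto then divides them. The shared sequence was counted here in the transcripts of release 21, whereas the paper names a later release for kallisto. Of the 31-base words in the transcripts of a gene, 96.4% occurred in no other gene for Ces1f, 93.8% for Ces1g, 93.7% for Ces1d, 91.9% for Ces1e, 91.3% for Ces2e and 90% for Ces2g. The share was lower for Ces1c (76.7%), Ces2b (73.8%) and Ces2a (69.8%). For Ces2c it was 49.9%, since 42.92% of its words also occur in the neighbouring pseudogene Ces2d-ps, so that the division between both is uncertain. The counts assigned to the pseudogene were few, with at most 33 in a library.

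The start regions of 7 members (Ces1c, Ces1e, Ces1g, Ces2a, Ces2c, Ces2e and Ces2g) were found in the RefSeq table of build GRCm38.p6, and those of Ces1d, Ces1f and Ces2b were not. The RefSeq start is the same base as that of the GENCODE gene for 6 of them, whereas for Ces1g it lies 99 bases inside the GENCODE gene. The bases before both starts, 250 for Ces2c and Ces2e and 151 for Ces1g, are shown for 3 members that differ in their pattern below, namely Ces1g, which was nearly absent in Akita mice, Ces2c, which was modestly lower, and Ces2e, whose fold changes were near 0 or above. They are written 5′ to 3′ on the strand of the gene, and capitals mark matches to the searched motifs on either strand.
Ces1g, chr8:93337309-93337459, minus strand: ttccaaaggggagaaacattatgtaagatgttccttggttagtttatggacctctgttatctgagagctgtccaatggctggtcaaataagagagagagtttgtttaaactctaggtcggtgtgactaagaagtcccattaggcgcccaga
Ces2c, chr8:104846818-104847067, plus strand: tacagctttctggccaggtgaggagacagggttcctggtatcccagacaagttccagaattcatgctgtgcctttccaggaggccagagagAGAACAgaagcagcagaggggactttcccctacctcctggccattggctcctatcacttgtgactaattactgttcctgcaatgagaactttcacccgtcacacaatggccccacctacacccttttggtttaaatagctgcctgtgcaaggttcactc
Ces2e, chr8:104926010-104926259, plus strand: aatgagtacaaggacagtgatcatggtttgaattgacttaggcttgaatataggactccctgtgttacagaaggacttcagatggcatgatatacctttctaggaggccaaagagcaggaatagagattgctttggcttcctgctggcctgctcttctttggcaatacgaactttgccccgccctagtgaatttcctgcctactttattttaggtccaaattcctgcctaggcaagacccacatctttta
Motifs were searched on both strands in windows of 300 bases, from 250 before to 50 after the start. TATAAA, the TATA box, occurred in 13.62% of all 32851 windows, TGTTCT, the core bound by steroid hormone receptors, in 18.97%, and AGGTCA, the core bound by other nuclear receptors, in 16.26%. GTTAAT, the core bound by HNF1, occurred in 7.10% and CAAAGTCCA, a motif of HNF4A, in 0.470%. Ces1g held TATAAA 26 bases before the RefSeq start, read on the opposite strand, which is inside the gene by GENCODE and is not among the bases shown. Ces2c held TGTTCT at 159 bases before it, also on the opposite strand. Ces2a held AGGTCA and Ces2g held TGTTCT, whereas Ces1c, Ces1e and Ces2e held none of the 5. A match is a description of the letters only.

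A pair of libraries stood apart before any comparison. WT MitoQ replicate 3 had a TMM factor of 0.505, where the other 39 libraries lay between 0.759 and 1.201, with a total of 9179473 counts. In WT water replicate 1, 9 of 12 hepatocyte markers were higher than in each of the other 39 libraries, among them albumin (Alb) at 292 CPM (counts relative to the library total, scaled by TMM over all libraries) against 1.98 to 31.2. The members Ces1c and Ces2a were high in it as well. Ces1c, which encodes a carboxylesterase that rodent liver secretes into plasma, was at 6.67 CPM (93 counts) in this library and at 0 to 0.424 CPM in the other 39. Ces2a, a triglyceride hydrolase of liver and intestine, was at 1.36 CPM (19 counts) against 0 to 0.216. The related liver esterase Ces3a was at 5.67 against 0 to 0.742. All 3 were thus high in the library with high albumin, and the part of other tissue in their values was not tested. Fold changes of the members on water between the genotypes are given with and without this library.

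Outside that library, Ces1c and Ces2a were near the limit of detection in the cortex. Ces1c had at most 8 counts in a library and Ces2a at most 2. In the ethanol arm, Ces2a had 0 counts in all 20 libraries, which together held 340201508 counts and so allow up to 0.00882 CPM. In the water arm it had 1 or more counts in 10 of 19 libraries without WT water replicate 1. No fold change is given for either gene.

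The other 8 members passed the filter of a mean of at least 10 counts in each comparison, and their levels per kilobase of the longest coding transcript spanned 2 orders of magnitude. Ces1f, a microsomal triglyceride hydrolase, was the most abundant, with a mean over the 8 groups of 165 CPM per kb. It was followed by Ces2c, an acylglycerol hydrolase of liver and intestine, with 96.1, and by Ces1d, known as triacylglycerol hydrolase, with 74.9. Ces1e, or egasyn, which holds beta-glucuronidase in the endoplasmic reticulum, had 23.3. The remaining means were 3.54 for Ces2e, 3.32 for Ces1g, 2.18 for Ces2b and 1.58 for Ces2g. Ces1g is a lipid-hydrolysing member whose loss in mice raises blood lipids.

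The order of neighbours was the same in nearly all libraries at the top of this list and depended on the genotype below it. Ces1f exceeded Ces2c per kb in all 20 WT libraries and in 17 of 20 Akita libraries, and Ces2c exceeded Ces1d in 38 of 40. Ces1d was above Ces1e, and Ces1e above Ces2e, in all 40. Ces2e was above Ces1g in 20 of 20 Akita libraries but in 5 of 20 WT libraries. Ces1g was above Ces2b in 18 WT libraries and in 0 Akita libraries, and Ces2b was above Ces2g in all 20 WT libraries but in 10 Akita libraries. Of the summed level of the 10 members per kb, Ces1f made up between 47.2% and 49.7% in the 4 WT groups and between 36.7% and 39.8% in the 4 Akita groups. The share of Ces2c was 22.2% to 24.95% in WT and 28.0% to 31.7% in Akita groups.

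**Figure D1:**
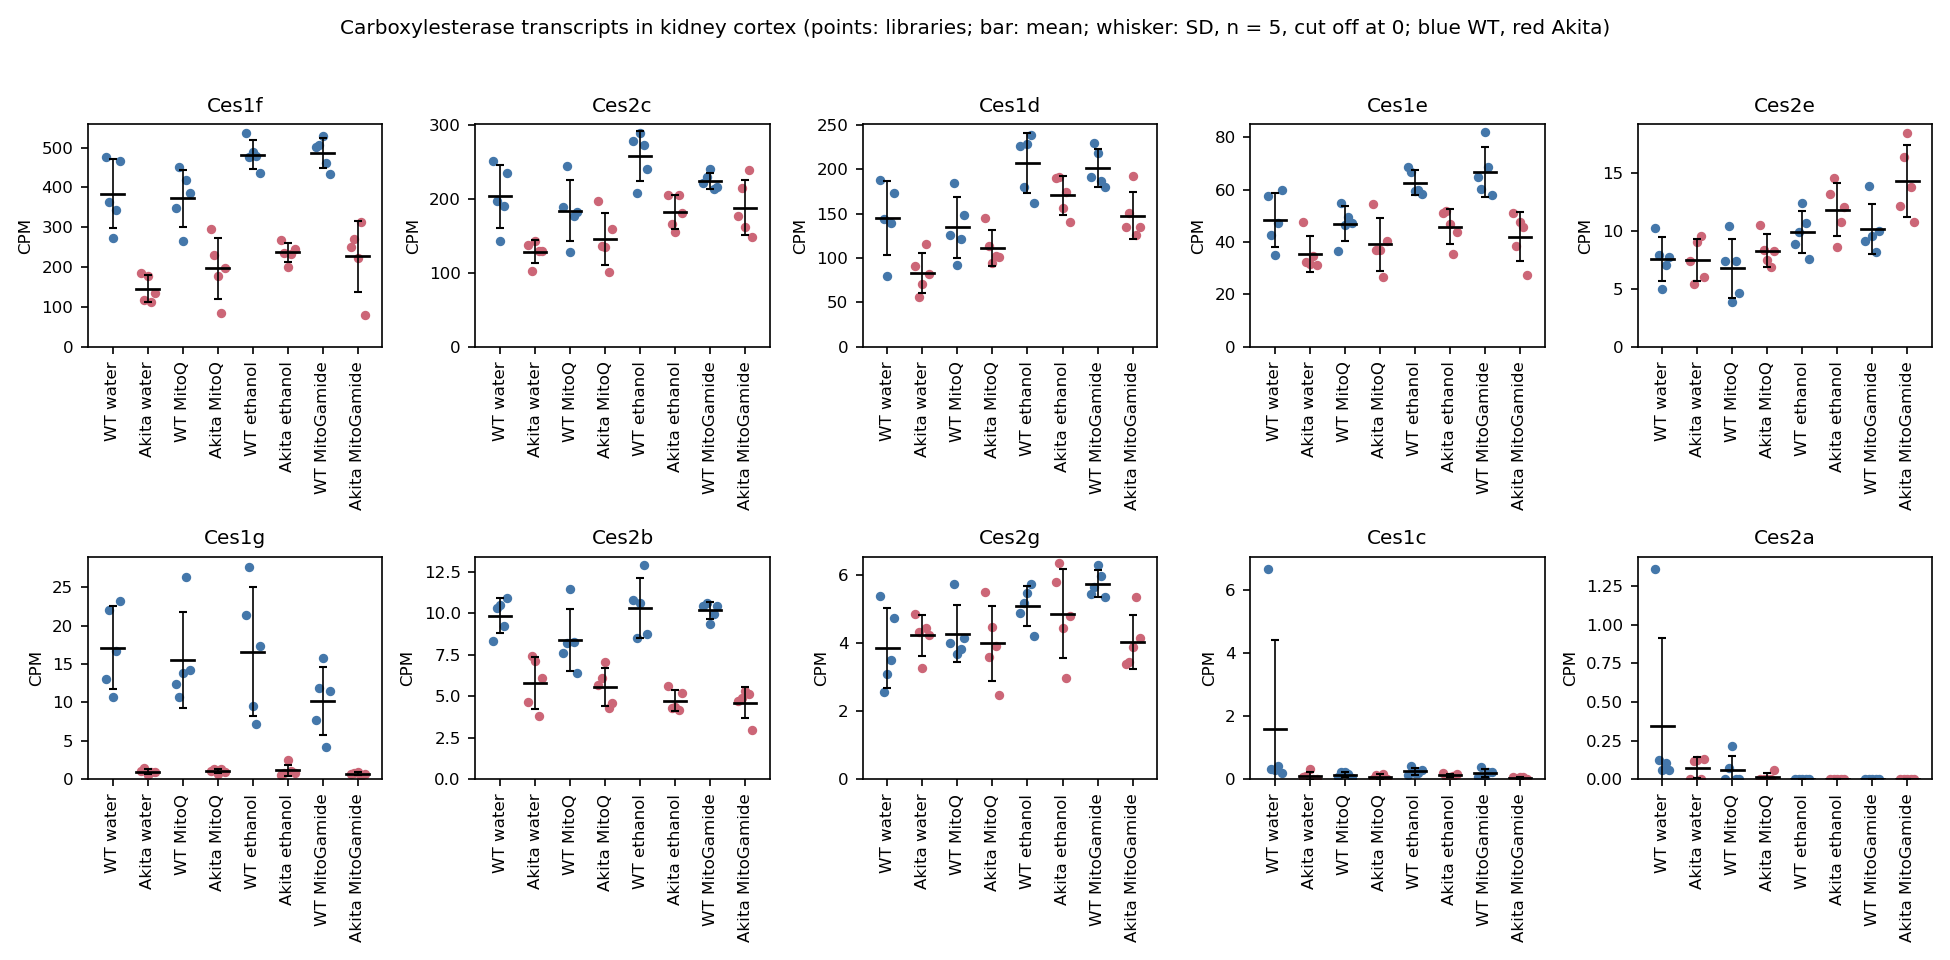
Level of each member in CPM (vertical axes, linear, one scale per gene) in the 8 groups of 5 libraries. Points are libraries, bars are group means and whiskers are 1 SD, cut off at 0. The Ces1g points of the Akita groups lie between 0.412 and 2.47 CPM, and the single high points of Ces1c and Ces2a are WT water replicate 1.

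Ces1g differed most between the genotypes. On the ethanol vehicle, the 5 WT mice had 7.13, 9.52, 17.4, 21.5 and 27.7 CPM, and the 5 Akita mice had 0.565, 0.773, 0.816, 1.05 and 2.47. On water, the WT values were 10.8, 13.1, 16.7, 22.0 and 23.2 and the Akita values 0.552, 0.903, 0.924, 1.08 and 1.48. In both arms every Akita value was far below every WT value. With MitoGamide the WT values were 4.15, 7.75, 11.6, 11.9 and 15.8 and the Akita values 0.412, 0.662, 0.721, 0.820 and 0.983. With MitoQ they were 10.8, 12.4, 13.8, 14.2 and 26.4 in WT and 0.611, 0.962, 1.01, 1.27 and 1.27 in Akita mice. Over all groups, the 20 Akita libraries (0.412 to 2.47 CPM) did not overlap with the 20 WT libraries (4.15 to 27.7), and the mean of the WT groups was 15.4 times that of the Akita groups. In Akita libraries the gene rested on 6 to 35 counts. The log2 fold changes were -3.93 ± 0.43 (SE) on ethanol, -4.15 ± 0.30 on water, -3.76 ± 0.36 with MitoGamide and -3.93 ± 0.29 with MitoQ, and without WT water replicate 1 the value on water was -4.21 ± 0.31.

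Ces1f, the most abundant member, was lower in the Akita group of all 4 pairs. On the ethanol vehicle, the WT mice had 436, 475, 478, 488 and 536 CPM and the Akita mice 202, 232, 236, 247 and 269. On water, the WT mice had 273, 344, 364, 467 and 475 CPM and the Akita mice 112, 117, 136, 178 and 186. Neither pair overlapped. With MitoGamide the WT values ran from 434 to 530 and the Akita values were 80.2 in 1 mouse and 222 to 314 in the other 4, again without overlap but with that mouse far below the others. With MitoQ the WT values were 265, 347, 386, 418 and 451 and the Akita values 85.1, 179, 197, 230 and 295, so that 1 WT and 1 Akita mouse overlapped, the WT mouse being replicate 3, the library with the low TMM factor. The log2 fold changes were -1.01 ± 0.08 on ethanol, -1.40 ± 0.22 on water, -1.06 ± 0.27 with MitoGamide and -0.92 ± 0.28 with MitoQ. The value on water was -1.30 ± 0.23 without WT water replicate 1, and that with MitoQ was -1.03 ± 0.27 without WT MitoQ replicate 3. Over all groups the WT mean was 2.14 times the Akita mean.

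Ces2b, a little studied member, showed a similar difference at a low level. On the ethanol vehicle, the WT mice had 8.51, 8.75, 10.6, 10.8 and 12.9 CPM and the Akita mice 4.19, 4.28, 4.38, 5.19 and 5.60. On water, the WT values were 8.32 to 10.9 and the Akita values 3.83 to 7.42. With MitoGamide they were 9.39 to 10.6 and 2.98 to 5.30. These 3 pairs did not overlap, whereas with MitoQ the WT values (6.41 to 11.5) overlapped with the Akita values (4.31 to 7.08). The log2 fold changes were -1.10 ± 0.13, -0.78 ± 0.20, -1.10 ± 0.15 and -0.56 ± 0.18 on ethanol, on water, with MitoGamide and with MitoQ, and the value on water was -0.82 ± 0.20 without WT water replicate 1.

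Ces1e, Ces2c and Ces1d were also lower in the Akita group of all 4 pairs. Ces1e did not overlap on ethanol (58.2 to 68.7 CPM in WT, 35.3 to 51.9 in Akita mice) or with MitoGamide (58.0 to 82.1 and 27.5 to 50.9) and overlapped in both pairs of the water arm. Its log2 fold changes lay between -0.63 with MitoGamide and -0.26 with MitoQ, where the value was -0.15 ± 0.15 without Akita MitoQ replicate 4 and -0.41 ± 0.15 without replicate 1. Ces2c did not overlap on ethanol, where the WT mice had 208, 239.9, 274, 279 and 289.5 CPM and the Akita mice 155, 166, 181, 205 and 206. It overlapped in the other 3 pairs, and its log2 fold changes lay between -0.66 on water and -0.21 with MitoGamide, where the value was -0.14 ± 0.11 without Akita MitoGamide replicate 5. Ces1d overlapped in all 4 pairs, with log2 fold changes between -0.80 on water, close to that of Ces2b there, and -0.26 on ethanol. Without WT MitoQ replicate 2, the values with MitoQ were -0.12 ± 0.17 for Ces1d (-0.28 with all libraries) and -0.21 ± 0.20 for Ces2c (-0.34). Without WT water replicate 1, the values on water were -0.36 ± 0.20 for Ces1e, -0.56 ± 0.19 for Ces2c and -0.67 ± 0.27 for Ces1d.

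Ces2e and Ces2g were not lower in the Akita group of all 4 pairs. Ces2e, a Ces2 member, had 9.91 ± 1.81 CPM (SD, n = 5) in WT and 11.9 ± 2.29 in Akita mice on ethanol, 10.2 ± 2.18 and 14.3 ± 3.15 with MitoGamide, 7.60 ± 1.89 and 7.52 ± 1.80 on water, and 6.78 ± 2.59 and 8.32 ± 1.40 with MitoQ. The groups overlapped in all 4 pairs. Its log2 fold changes ran from -0.0028 ± 0.22 on water, which gives no direction, to 0.54 ± 0.17 with MitoGamide, and without WT water replicate 1 the value on water was 0.15 ± 0.23. Ces2g, another Ces2 member, had log2 fold changes of -0.05 ± 0.18 on ethanol, 0.13 ± 0.24 on water, -0.47 ± 0.15 with MitoGamide and -0.11 ± 0.22 with MitoQ. Apart from that with MitoGamide these values lay within their SE, and without WT water replicate 1 the value on water was 0.29 ± 0.24. Its groups overlapped in each pair.

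**Figure D2:**
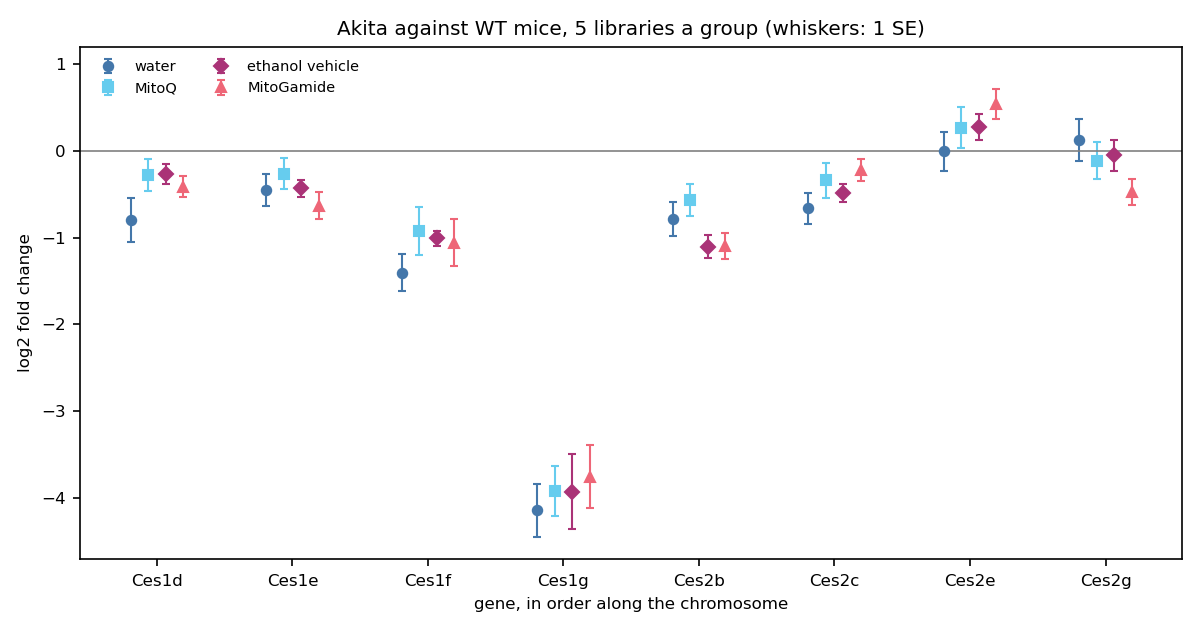
Log2 fold change of Akita against WT mice (vertical axis) for the 8 members above the count filter, in order along chromosome 8, for each of the 4 pairs of groups. Whiskers are 1 SE from the edgeR fit, with 5 libraries a group. Ces1g lies near -4 in all 4 pairs, Ces1f between -1.40 and -0.92, Ces2b between -1.10 and -0.56, and Ces2e between -0.0028 and 0.54.

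By edgeR's quasi-likelihood test, with an adjusted p under 0.05 as a call, 5 of 8 tested members were called on ethanol (Ces1f, Ces1g, Ces2b, Ces2c and Ces1e), all lower, where 8.22% of all 17747 genes were called lower. The groups of 5 members did not overlap, all lower, where this held for 7.43% of genes. On water 2 of 9 were called lower (Ces1f and Ces1g, background 0.366%), and 3 did not overlap (background 1.60%). With MitoGamide 5 of 8 were called lower (Ces1f, Ces1g, Ces2b, Ces1e and Ces1d, background 6.60%) and 4 did not overlap (background 7.02%). With single libraries left out, 2 to 5 were called there, with 2 without WT MitoGamide replicate 3, and 3 without its replicate 1 or without Akita MitoGamide replicate 2. Ces1d was called in 2 of these 10 fits and Ces1f in 7, and Ces2e was called higher in 2. With MitoQ 1 of 8 was called lower (Ces1g, background 0.292%) and 1 did not overlap (background 1.54%). Without WT water replicate 1, Ces1g alone was called on water and Ces1c was no longer tested. On ethanol, the median log2 fold change of the 8 members was -0.46, and that of all genes was -0.0021.

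The next comparisons, of compounds and vehicles within a genotype, share their vehicle libraries with those of the genotypes and with each other. MitoGamide was given on top of the ethanol vehicle, and no member passed the threshold. In Akita mice, 0 of 8 tested members were called by edgeR against the ethanol vehicle, 0 had an unadjusted p under 0.05, and DESeq2 called 0. The background was 1.26% of 17051 genes, and between 0 and 802 genes were called when each library was left out in turn (802 without Akita MitoGamide replicate 5). The log2 fold changes ran from -0.58 for Ces1g to 0.29 for Ces2e, which had the lowest adjusted p (0.348). The value of Ces2e ran from 0.17 to 0.38 when each library was left out in turn. The value of Ces1g rested on Akita ethanol replicate 3, without which it was -0.12 ± 0.29. For Ces1f the difference was -0.04 with a 95% interval from -0.63 to 0.55, and for Ces2b -0.02 with an interval from -0.39 to 0.35. Without Akita MitoGamide replicate 5 these were 0.18 ± 0.11 and 0.10 ± 0.13, and neither was called, whereas Ces2e was at 0.38 ± 0.15 with an unadjusted p by edgeR of 0.0267 (adjusted p = 0.152). Changes of Ces1g between -1.46 and 0.29 were within its interval. In WT mice 0 of 8 were called by edgeR or DESeq2 and 1, Ces2c, had an unadjusted p under 0.05 (log2 fold change -0.21, interval from -0.39 to -0.02, adjusted p by edgeR 0.412). Of all 17395 genes, 0% were called there by edgeR, and 1841 had an unadjusted p under 0.05. The interval of Ces1f in WT mice was narrow, from -0.15 to 0.17, and that of Ces1g wide, from -1.49 to 0.09.

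For MitoQ, too, no member passed the threshold. In Akita mice 0 of 8 were called against water by edgeR or DESeq2, with 0 at an unadjusted p under 0.05. In WT mice 0 of 9 were called by either tool, and the 1 with an unadjusted p under 0.05 was Ces1c, which passed the filter through WT water replicate 1 and was not tested without it, when 0 of 8 were called and the log2 fold changes ran from -0.31 for Ces2b to 0.31 for Ces2g. In all genes the share called by edgeR was 0% in both. In WT mice 575 of all 17881 genes had an unadjusted p under 0.05. The log2 fold changes in Akita mice ran from -0.08 to 0.44. Without WT MitoQ replicate 3, 0 of 9 were called in WT mice by edgeR, Ces1c and Ces2b had an unadjusted p under 0.05, and Ces1f moved from -0.04 to 0.06 and Ces2b from -0.25 to -0.38. For Ces1f, the Akita difference of 0.44 had an interval from -0.17 to 1.05 and ran from 0.24 to 0.63 when each library was left out in turn. Without Akita MitoQ replicate 4 it was 0.63 ± 0.21, with an unadjusted p by edgeR of 0.0109 and an adjusted p of 0.964. For Ces1d the difference was 0.42 with an interval from -0.0016 to 0.85.

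The responses of WT and Akita mice to each compound were compared by an interaction term in edgeR. For MitoGamide 0 of 8 members were called, with 0 at an unadjusted p under 0.05 and a lowest adjusted p of 0.620 (Ces2g, -0.44, interval from -0.93 to 0.06). For MitoQ it was also 0 of 8, with 0 at an unadjusted p under 0.05. DESeq2 called 0 in either, and the background was 0% in both. Without Akita MitoGamide replicate 5 the MitoGamide interaction of Ces2c was 0.36 ± 0.15. Without Akita MitoQ replicate 4 the MitoQ interaction of Ces1f was 0.68 ± 0.30. Their unadjusted p by edgeR was 0.030 and 0.0343, and neither was called. With all libraries these values were 0.26 ± 0.17 and 0.48 ± 0.36. They ran from 0.16 to 0.36 and from 0.28 to 0.68 when each library was left out in turn. The intervals were wide for Ces1g, from -1.29 to 1.60 for MitoGamide.

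Of the tested comparisons, members were called in that of the vehicles. In Akita mice, 4 of 8 tested members were called higher on ethanol than on water by edgeR, where 3.66% of all 17928 genes were called higher and 12.7% in either direction. Ces1d had 56.0, 70.6, 82.5, 91.3 and 115 CPM on water and 140.4, 156, 174, 190.0 and 192 on ethanol, a log2 fold change of 1.05 ± 0.18 (adjusted p = 0.0296). For Ces1f the change was 0.71 ± 0.16 (adjusted p = 0.0311) and for Ces2c 0.52 ± 0.13 (adjusted p = 0.0348). The groups of these 3 genes did not overlap, which held upwards for 4.06% of genes. Ces2e rose by 0.65 ± 0.18 (adjusted p = 0.0423), with 5.48 to 9.59 CPM on water and 8.62 to 14.6 on ethanol. Ces1g and Ces2b had 0.21 ± 0.41 and -0.26 ± 0.19 and were not called, and Ces1g had -0.26 ± 0.32 without Akita ethanol replicate 3. The median of the 8 members was 0.45, and that of all genes -0.02.

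These 4 calls were unstable. When each library was left out in turn, between 1 and 6496 of all genes were called and between 0 and 5 members, with 0 without any 1 of Akita ethanol replicates 1, 2, 3 or 5 or Akita water replicates 3 or 5, 1 without Akita water replicate 2 and 2 without Akita ethanol replicate 4. The size of the changes moved little, for example between 0.95 and 1.19 for Ces1d. Of all 17928 genes in the same comparison, 7109 had an unadjusted p under 0.05 by edgeR and DESeq2 called 4264. Of the 14 proximal tubule markers, 0 were called by edgeR in this comparison, 5 had an unadjusted p under 0.05 and DESeq2 called 6. Their median was 0.35 and their summed level was 13510 to 18040 CPM on ethanol and 11110 to 15920 on water. Of the 10 markers of other nephron segments, 2 were called lower on ethanol, among them Slc12a3 (-0.70 ± 0.19, adjusted p by edgeR 0.0376), and 3 by DESeq2. The median of these 10 was -0.02, close to that of all genes, with a summed level of 2637 to 2849 CPM on ethanol and 2837 to 3256 on water. The part of these cells in the result was not tested.

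In WT mice, 0 of 9 members were called between ethanol and water by edgeR, where 0% of 18092 genes were called. DESeq2 called 0 members and 725 of all genes. An unadjusted p under 0.05 by edgeR was found for 3 members (Ces1c, Ces1d and Ces1e) and for 4959 of the 18092 genes. When each library was left out in turn, between 0 and 5216 of all genes were called, with 5216 without WT water replicate 5, when Ces1c and Ces1e were called. Ces1c passed the filter through WT water replicate 1 and was not tested without it. Ces1d was 0.52 ± 0.22 higher on ethanol (adjusted p = 0.162) and Ces1f 0.33 ± 0.17 (adjusted p = 0.209). Without WT water replicate 1, these values were 0.64 ± 0.22 and 0.43 ± 0.17, and 0 of 8 members were called by edgeR, with 6 at an unadjusted p under 0.05. The share of all genes at such a p without that library is not given here, so nothing is read from the 6. Whether the vehicle difference differs between WT and Akita mice was not tested.

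**Figure D3:**
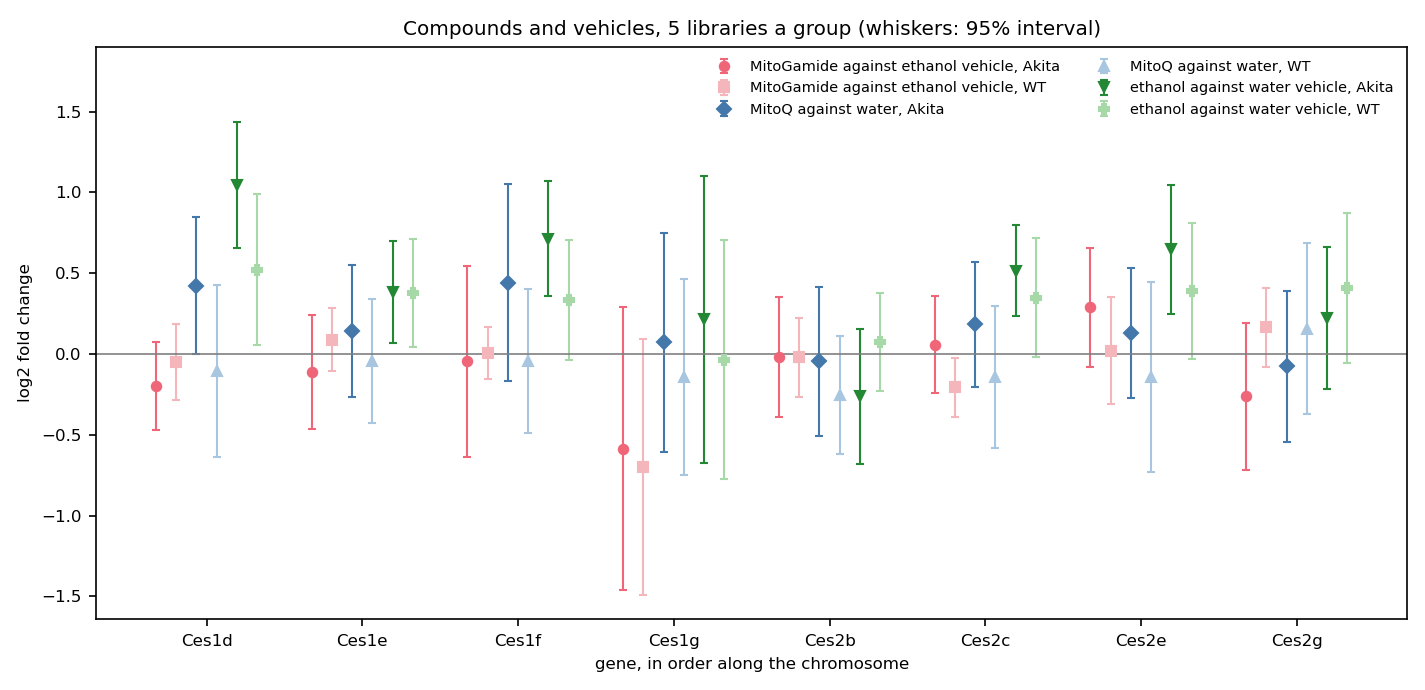
Log2 fold change (vertical axis) of the 8 members above the count filter for MitoGamide against the ethanol vehicle, MitoQ against water and ethanol against water, in Akita and in WT mice. Whiskers are 95% intervals from the edgeR fits, with 5 libraries a group. The dark green triangles of ethanol against water in Akita mice lie highest for Ces1d, at 1.05, and the intervals of both compounds hold 0 except for Ces2c with MitoGamide in WT mice.

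Within groups, several members rose and fell together from mouse to mouse. Across the 40 libraries, after each group's mean was subtracted from log2 CPM, Ces1f correlated with Ces2c (r = 0.77) and with Ces1e (r = 0.74), and Ces1d with Ces2e (r = 0.72). Ces1g and Ces2b stood apart, with correlations with the other members between -0.26 and 0.35. These correlations are descriptions over 40 libraries, and all genes of a library share its depth and tissue composition.

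The deviations of Ces1f followed those of Slc7a13, a transporter of the last segment of the proximal tubule, with r = 0.90. Over the 14 proximal tubule markers, the correlations with Ces1f ran from -0.46 to this value. A pair of Akita mice, chosen after their values were seen, lay farthest from their groups. In Akita MitoGamide replicate 5, Ces1f was at 80.2 and Slc7a13 at 16.1 CPM, where the other 4 mice of the group had 144 to 204 CPM of Slc7a13. In Akita MitoQ replicate 4, Ces1f was at 85.1 and Slc7a13 at 21.2, where the others had 165 to 218. In both mice the same 5 of 8 members (Ces1e, Ces1f, Ces2b, Ces2c and Ces2e) were the lowest of their group, a number that WT ethanol replicate 5 and WT MitoQ replicate 3 also reached and WT water replicate 3 exceeded with 6. In the Akita pair the summed proximal tubule markers were at 13570 CPM (13470 to 15930 in the other 4) and at 11810 CPM (12460 to 16470 in the other 4). Without Akita MitoGamide replicate 5, the log2 fold change of Ces1f between the genotypes was -0.84 ± 0.11, and without Akita MitoQ replicate 4 it was -0.73 ± 0.20.

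**Figure D4:**
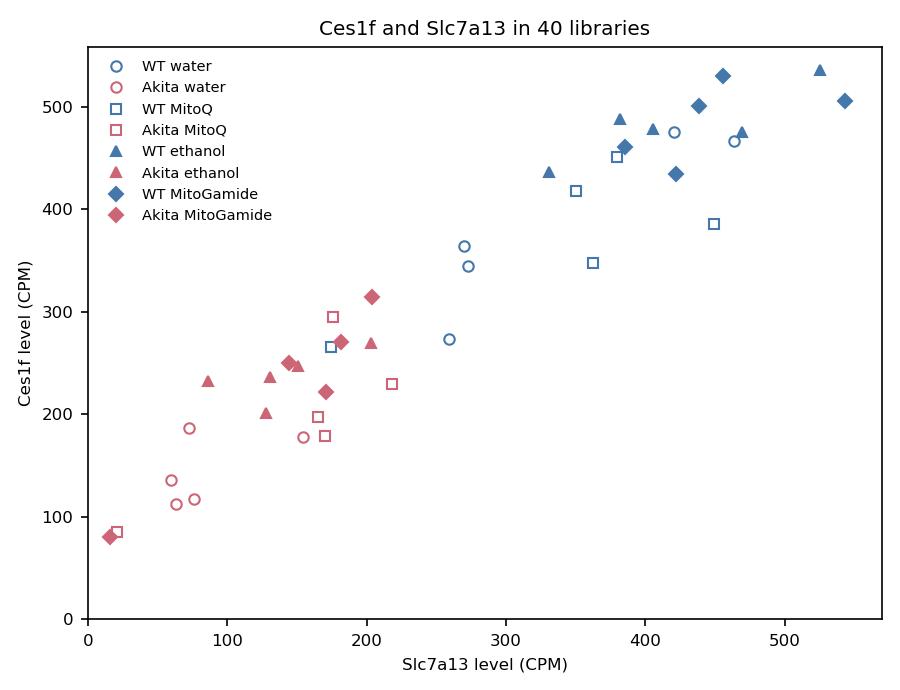
Level of Ces1f (vertical axis, CPM) against that of Slc7a13 (horizontal axis, CPM) in the 40 libraries, with one symbol per group. WT libraries are blue and Akita libraries red. The libraries at the lower left are Akita MitoGamide replicate 5 and Akita MitoQ replicate 4, at 16.1 and 21.2 CPM of Slc7a13.

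Slc7a13 and Slc22a7, both transporters of the late proximal tubule, were themselves lower in Akita mice in 3 of the 4 pairs by edgeR. For Slc7a13 the log2 fold changes were -1.58 ± 0.19 on ethanol (adjusted p = 1.43e-04), -1.999 ± 0.30 on water (adjusted p = 0.0140) and -1.61 ± 0.45 with MitoGamide (adjusted p = 0.0343), and -1.19 ± 0.46 with MitoQ (adjusted p = 0.417). For Slc22a7 they were -2.72 ± 0.34, -2.704 ± 0.42, -2.20 ± 0.51 and -1.71 ± 0.58 in the same order. The values with MitoGamide include Akita MitoGamide replicate 5 (16.1 CPM of Slc7a13). Those with MitoQ include Akita MitoQ replicate 4 (21.2 CPM). Values of these markers without either mouse are not given here. Of the 14 proximal tubule markers, 4 were called lower and 1 higher on ethanol, and 0 higher and 2 lower on water. With MitoGamide 5 were called lower. With MitoQ 0 were called by edgeR or DESeq2. An unadjusted p under 0.05 by edgeR was found there for 4 markers and for 1644 of all 18143 genes. The median of the 14 markers was -0.09, -0.19, -0.09 and -0.04. Their summed level was 16730 to 21340 CPM in WT and 13510 to 18040 in Akita mice on ethanol. With MitoGamide the sums did not overlap (17810 to 20230 in WT, 13470 to 15930 in Akita mice), whereas they did on water (11240 to 18490 and 11110 to 15920) and with MitoQ (11430 to 18670 and 11810 to 16470). Without WT water replicate 1, Slc7a13 and Slc22a7 had -1.89 ± 0.32 and -2.53 ± 0.43 on water and were still called (adjusted p by edgeR 0.0455 and 0.0470). The part of these cells in the lower values of the members was not tested.

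Of the other family genes, Ces2f was the most abundant, with a mean over the 8 groups of 2.65 CPM per kb. Of 10 other carboxylesterase genes, 3 passed the filter on ethanol. Ces2h was called lower in Akita mice on ethanol (-1.09 ± 0.26, adjusted p = 0.0126) and with MitoGamide (-1.24 ± 0.38, adjusted p = 0.0486), with -1.61 ± 0.46 on water and -0.98 ± 0.37 with MitoQ (adjusted p = 0.221 and 0.387, all by edgeR). Ces2f, which lies between Ces2e and Ces2g, was called lower with MitoGamide (-0.82 ± 0.19, adjusted p = 0.0162) and had -0.35 ± 0.14 on ethanol, -0.13 ± 0.24 on water and -0.34 ± 0.25 with MitoQ (adjusted p = 0.117, 0.9999 and 0.834, all by edgeR). Without WT water replicate 1, its value on water was -0.08 ± 0.26. In Akita mice Ces2f was lower on ethanol than on water by edgeR (-0.54 ± 0.15, adjusted p = 0.0424), whereas its neighbour Ces2e was higher there. Calls of this comparison were unstable. With each library left out in turn, between 1 and 6496 of all genes were called, and Ces2e was called in 2 of 10 fits.

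The list of other lipid and ester hydrolases moved in both directions. Of all genes tested, 16.4% were called in either direction on ethanol, 0.552% on water, 14.3% with MitoGamide and 0.557% with MitoQ. An unadjusted p under 0.05 by edgeR was found for 1384 of 18304 genes on water and for 1644 of 18143 with MitoQ. DESeq2 called 354 and 415 of these genes. The number called on water, 101, fell to between 32 and 94 when each library was left out in turn (49 without WT water replicate 1). With MitoQ it was between 35 and 270 (270 without WT MitoQ replicate 3). With MitoGamide the number called, 2386, lay between 1248 without WT MitoGamide replicate 2 and 2822 without Akita MitoGamide replicate 5. Of 17 tested genes, 5 rose and 3 fell in Akita mice on ethanol, 5 rose and 1 fell with MitoGamide, 1 fell on water, and 1 rose and 1 fell with MitoQ. Lpl, the lipoprotein lipase that takes up triglyceride from blood, was called lower in all 4 pairs, with log2 fold changes of -2.10 ± 0.11, -2.32 ± 0.22, -2.09 ± 0.13 and -1.85 ± 0.28 on ethanol, on water, with MitoGamide and with MitoQ. Mgll, the monoglyceride lipase, was called higher in 3 pairs, with 0.66 ± 0.11, 0.95 ± 0.17 and 0.88 ± 0.13 on ethanol, with MitoGamide and with MitoQ, and had 0.72 ± 0.18 on water (adjusted p by edgeR 0.145). When WT water replicate 1 was left out, Lpl on water was at -2.31 ± 0.24 and was called, and Mgll was at 0.79 ± 0.20 and was not. Lipa, the lysosomal acid lipase, was not called in any of the 4.

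Among genes of triglyceride synthesis and lipid droplets, 3 rose and 3 fell of 14 tested on ethanol, and 4 rose and 1 fell with MitoGamide. Mogat2, which makes diglyceride from monoglyceride, was called higher in all 4 pairs, with log2 fold changes of 1.22 ± 0.19, 1.78 ± 0.30, 1.198 ± 0.15 and 1.63 ± 0.31 in the order above, and it was the 1 called gene of the list on water and with MitoQ. It had 1.95 ± 0.32 on water without WT water replicate 1 and was still called. Apob, the protein of secreted lipoproteins, was called higher on ethanol (0.51 ± 0.14, adjusted p by edgeR 0.0235) and with MitoGamide (0.81 ± 0.23, adjusted p 0.0370 by edgeR).

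Transcription factors that sense xenobiotics or shape the tubule were a further list. On ethanol, 3 of 14 tested rose and 3 fell, among them Hnf4a, a regulator of proximal tubule identity, by -0.28 ± 0.07 (adjusted p by edgeR 0.0139). On water and with MitoQ 0 of 14 were called by edgeR or DESeq2, with 3 and 1 at an unadjusted p under 0.05. With MitoGamide 1 of 13 was called, Nr1h4 or FXR, the bile acid receptor (0.75 ± 0.20, adjusted p by edgeR 0.0316).

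Markers of other cells were set beside the members. Of 10 markers of other nephron segments, 4 were called higher in Akita mice on ethanol and with MitoGamide, among them Calb1 of the distal tubule and Aqp2 of the collecting duct. On water and with MitoQ edgeR called 0 and DESeq2 called 1 and 2, with 4 and 2 at an unadjusted p under 0.05. Of the hepatocyte markers, 1 rose and 2 fell of 7 tested on ethanol, 1 rose with MitoGamide, and 0 were called with MitoQ. On water 12 passed the filter with a median of -2.61, 0 were called by edgeR or DESeq2 and 7 had an unadjusted p under 0.05, and WT water replicate 1 held the high values. Without that library, the markers still tested on water went in both directions, with log2 fold changes from -1.18 to 2.58, and none was called by edgeR. Of 10 immune cell markers, 6 were tested and 2, 1, 1 and 1 were called lower on ethanol, on water, with MitoGamide and with MitoQ, with a summed level of 60.6 to 86.9 CPM in WT and 40.9 to 55.6 in Akita mice on ethanol. The call on water, Csf1r (-0.86 ± 0.16), had -0.78 ± 0.16 without WT water replicate 1, with an adjusted p by edgeR of 0.115. Of 10 adipocyte markers 1 was called higher on ethanol and 2 with MitoGamide, among them Pck1, which the proximal tubule also expresses. On water and with MitoQ edgeR called 0 of 5 and 0 of 4 tested, with 2 and 1 at an unadjusted p under 0.05, and DESeq2 called 0 and 1. Of the 8 adrenal cortex markers 1, Star, was tested, and it was not called by edgeR or DESeq2 or at an unadjusted p under 0.05 in any of the 4 pairs. Between 1 and 4 of the 8 were at 0 in a group, and their summed level was 2.75 to 7.26 CPM over all libraries, most of it Star.

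The genes whose group means were nearest to those of each member were found among genes outside the family with a mean of at least 10 counts, by the root mean square difference of the 8 centred log2 means. For Ces1g these were Cntnap5a (0.29), AA536875 (0.29) and Col19a1 (0.43). For Ces1f they were Slc17a3, a phosphate and urate transporter of the proximal tubule (0.0915), Amacr, which racemizes branched fatty acids in peroxisomes (0.0921), and Agps, an enzyme of ether lipid synthesis (0.0987). For Ces1d they were Gchfr, Fuca2 and Mogat1, for Ces2b Olfr1033, Mpped2 and Ntn1, for Ces2c Apln, Tmem205 and Med28, and for Ces2e Hsd17b7, S100a16 and Gm10275, at differences between 0.0424 and 0.124. The group means of Ces1e and Ces2g spanned less than 1 on the log2 scale (0.92 and 0.61), and no gene was sought for them.

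**Figure D5:**
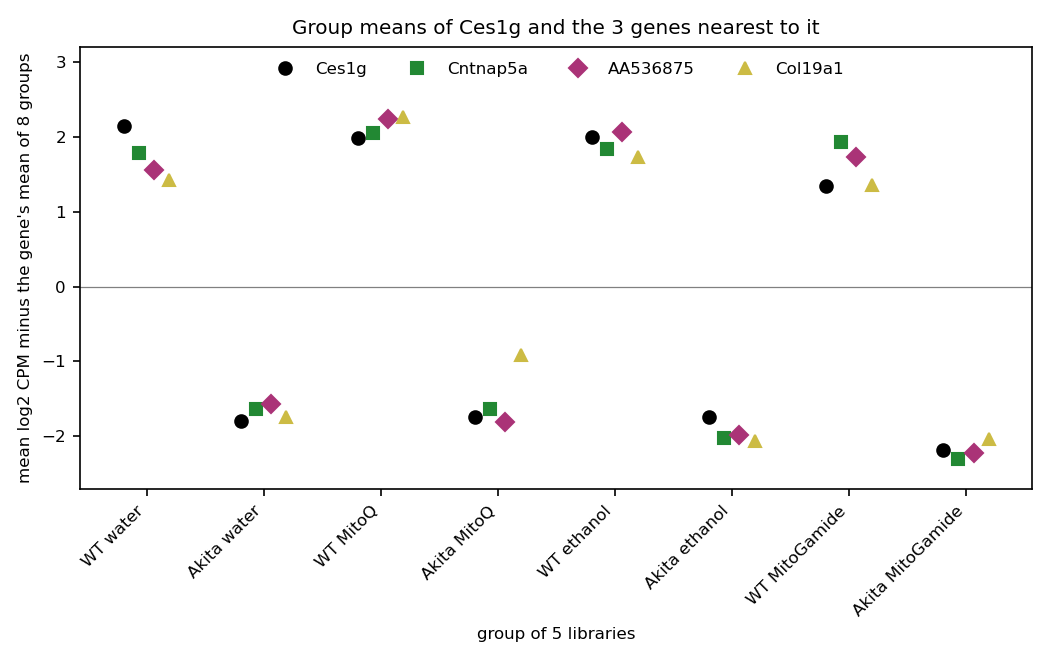
Group means of log2 CPM of Ces1g and of the 3 genes with the most similar means, each minus its own mean over the 8 groups (vertical axis), for each group of 5 libraries (horizontal axis). The 4 WT groups lie above 1 and the 4 Akita groups below 0 for all 4 genes, with Col19a1 in Akita mice on MitoQ the nearest to 0.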

How the data were processed

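RNA of the renal cortex was sequenced in 40 libraries after ribosomal RNA depletion with a directional single-read protocol. The authors trimmed the reads and ran kallisto (version 0.46.1 in the submitters' processing notes) on GENCODE mouse transcripts of build GRCm38, and deposited estimated counts summed per gene, with no normalization, for 55401 genes. The deposited values were whole numbers, so a rounding step before the fits left them as they were. Reads that match several family members are divided by kallisto's model, so members with few unique sequences are less certain. Each library was labelled as 1 animal. The depth of 9106654 to 24321424 counts limits the values of Ces1c, Ces2a and, in Akita mice, Ces1g.

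Groups were taken from the labels. Each comparison was fitted on its own 10 libraries (20 for an interaction) with edgeR 4.0.16 in R 4.3.3, by the quasi-likelihood test after TMM scaling, restricted to genes whose mean count was 10 or more. P-values were two-sided and were adjusted over all tested genes by the method of Benjamini and Hochberg, with a call at an adjusted p under 0.05. Intervals are 95% intervals of the fitted log2 fold change. CPM levels used TMM factors over all 40 libraries, and log2 CPM a prior count of 2. The script was tested on simulated data. Alternatives were DESeq2 1.42.0 (the authors' tool), its size factors in edgeR (RLE), leaving the filter out, a stricter filter that asks each library for 10 counts, a joint fit of the 40 libraries, a replicate block and leaving out each library.

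The members and gene lists were chosen with earlier results of these data known. All members are given. Of each other list, up to 4 genes could be named, the 2 called in most genotype comparisons and the 2 of highest mean CPM. Genes of similar pattern were sought for members whose group means spanned over 1 on the log2 scale. Start regions came from RefSeq (GRCm38.p6) and gene positions from GENCODE. The libraries that stand apart were singled out after their values were seen, and so were Alb and Ces3a, which that rule does not give.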

Additional observations from a re-analysis of the deposited data

Results flagged for a closer look

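In each group of 5 libraries, the highest and the lowest value of each member were compared with the nearest other value. In 8 of 76 tested sets, this gap exceeded Dixon's 95% critical value of 0.71 of the range, where chance gives about 3.8.

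In WT water replicate 1, Ces1c was at 6.67 CPM against 0.185 to 0.424 in the other 4 mice and Ces2a at 1.36 against 0.0594 to 0.125, in the library with the high hepatocyte markers. In Akita MitoQ replicate 5, Ces2a was at 0.0601 CPM, which is 1 count, where the other 4 libraries had no count. With the others at 0, any count passes the critical value, so nothing is read from this flag. In Akita ethanol replicate 3, Ces1g was at 2.47 CPM against 0.565 to 1.05, which is still below each WT mouse. In WT MitoQ replicate 4, Ces1g was at 26.4 CPM against 10.8 to 14.2. In Akita MitoGamide replicate 5, Ces2b was at 2.98 CPM against 4.69 to 5.30, in the mouse with the low Ces1f and Slc7a13. In Akita water replicate 1, Ces1e was at 47.6 CPM against 31.2 to 34.7. In WT MitoQ replicate 2, Ces2g was at 5.74 CPM against 3.68 to 4.14.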

How the results depend on the processing

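No log2 fold change of a called member changed sign under any alternative run. On ethanol, 5 members were called between the genotypes, and 3 with all 40 libraries in one fit. On water, 2 were called, with 4 by DESeq2 and 6, among them Ces1c, with all 40 libraries in one fit. The number was 1 with at least 10 counts in every library, where Ces1g was not tested, and 1 with the replicate block. Ces1c passed the filter through WT water replicate 1, with 93 counts there and at most 8 in any other library. Its calls are therefore not read as a difference between groups. With MitoGamide, 5 were called, and 4 to 7 under the other settings: Ces1d was lost without the filter and with all 40 libraries in one fit, Ces2e was gained by DESeq2 and with the replicate block, and Ces2g was gained by DESeq2 and with at least 10 counts in every library, where Ces1g was not tested. With MitoQ, 1 was called, and 2 with all 40 libraries in one fit. Between the vehicles, 4 were called in Akita mice and 0 with the replicate block, and in WT mice 0 were called and 1, Ces1c, with all 40 libraries in one fit. Replicate numbers did not pair the animals: of 50 same-numbered pairs, 13 had a correlation of deviations over 0.1, in a range from -0.447 to 0.646, and 12 correlated best with their own number.

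Leaving out each library gave 5 to 6 called members on ethanol, 1 to 2 on water (Ces1f was lost without Akita water replicate 4 or 5 or WT water replicate 1), 2 to 5 with MitoGamide (2 without WT MitoGamide replicate 3, 3 without its replicate 1 or without Akita MitoGamide replicate 2), 1 with MitoQ, 0 to 5 between the vehicles in Akita mice and 0 to 2 in WT mice (2, Ces1c and Ces1e, without WT water replicate 5). The counts for the compounds and interactions were 0 under each alternative run. The genotype counts of the 4 other gene lists (carboxylesterases, hydrolases, triglyceride genes and transcription factors) moved by over 1.5 times in 41 fits with a library left out and not in 119, and in 16 of the other alternatives and not in 80. Why these counts moved was not tested. Depth limits Ces1c and Ces2a, which were at or under 8 counts outside 1 library.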
